A study of Mus musculus with 5 samples.

Results

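The subventricular zone (SVZ), the birthplace of migrating neuroblasts in the adult brain, was compared with the olfactory bulb (OB), their destination. Both tissues were microdissected from adult male wild-type mice of the strain C57BL/6 and snap-frozen, and poly(A) RNA was sequenced. The comparison was between SVZ replicate 1 and OB, 1 sample each, and SVZ replicate 2, which the labels call a biological replicate, served only to check the direction. The study also held 1 sample of dentate gyrus (DG) and 1 of striatum (STR), its control tissue without neurogenesis, from mice of the same description. All groups were untreated, and the sources used here do not give the number of animals behind a sample. The genes compared were the coding genes of RefSeq in the deposited table that reached 1 FPKM (fragments per kilobase of transcript, normalised to the library's mapped fragments) in SVZ replicate 1 or OB. They numbered 13716 of 20340, and the other 6624 were below 1 FPKM in both.

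In the SVZ, astrocyte-like stem cells line the wall of the lateral ventricle beside multiciliated ependymal cells and divide into transit-amplifying cells, which give rise to neuroblasts. Neuroblasts migrate in chains along the rostral migratory stream into the OB, where they become granule and periglomerular interneurons. The OB also holds the mitral and tufted cells, its glutamatergic projection neurons, and receives the axons of olfactory sensory neurons wrapped in ensheathing glia. The SVZ borders the striatum and the septum, so a dissected SVZ can include neurons of both.

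Differences are those of log2(FPKM + 1), SVZ replicate 1 minus OB, so that 1 unit is a 2-fold and 2 units a 4-fold difference, understated for low genes. With 1 sample a side there was no replicate error and no test, and "higher" refers to size alone. The labels name no library batches, but SVZ replicate 2 and STR shared features that SVZ replicate 1 and OB lacked. Gapdh was at 457 FPKM in SVZ replicate 1 and 563 in OB, but at 32.4 in SVZ replicate 2 and 39.5 in STR, and the ribosomal gene Rpl23 was at 9.36 and 5.06 against 201 and 158. The comparison was therefore kept to SVZ replicate 1 and OB. The median difference of all genes was -0.08 for SVZ replicate 1 minus OB and -0.41 for SVZ replicate 2 minus OB. Both use the same OB library, so a shared direction is a check on the SVZ sample only. Across genes the difference also fell with the GC content of the transcripts, with a Spearman rho of -0.273 over 13685 genes for SVZ replicate 1 and -0.564 for SVZ replicate 2, and the part of GC content in single differences was not tested.

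Most coding genes were at similar levels in birthplace and destination: 11391 of 13716 (83.0%) differed by less than 1 unit. At 1 unit or more, 1052 genes were higher in the SVZ (7.67% of those compared) and 1273 in OB (9.28%), and these percentages are the background against which each list below is read. At 2 units or more the counts were 338 (2.46%) and 377 (2.75%). With SVZ replicate 2 in place of replicate 1, all 338 and all 377 kept their direction. They were still at least 2 units apart for 180 and 358 of them. SVZ replicate 2 alone put 314 genes 2 units higher in the SVZ and 778 in OB. The genes nearest the 2-unit threshold were at 2.00 on either side of it, so the counts mark no gap in the distribution. In bulk tissue, fewer cells of a type and less RNA per cell cannot be told apart.

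The genes farthest to the SVZ side were mostly genes of striatal neurons, with fewer of cilia-bearing cells. Scn4b, a sodium channel beta subunit abundant in striatal neurons (chromosome 9, 44947125 to 44962144, mm9), was at 330 and 314 FPKM in the SVZ replicates and 1.80 in OB, a difference of 6.89. Crym, a thyroid hormone-binding crystallin (chromosome 7, 127329898 to 127345502), was at 517 and 210 against 7.08 (6.00). In STR these genes were at 575 and 82.5 FPKM, so that Scn4b stood above both SVZ replicates there and Crym below both. The 15 largest differences, down to 4.88 for Serpina9, also took in Lrrc10b (5.66), Drd1a, Ppp1r1b, Drd2, Pdyn and Gng7, Ccdc153 and Tmem212 of cilia-bearing cells, the homeobox gene Six3, the matrix gene Thbs4 and Cd4.

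The genes farthest to the OB side included genes of sensory axons, mitral and tufted cells and periglomerular interneurons. S100a5 encodes an S100 protein found in mature olfactory sensory neurons. Its locus lies on chromosome 3 (90412444 to 90415702), and it reached 409 FPKM in OB but was listed at 0 in both SVZ replicates. Omp, the olfactory marker protein, was at 187 FPKM against 0.202 and 0.0157 (-7.29). Its deposited locus (chromosome 7, 105270075 to 105334107) also holds Capn5, which was at 9.75 and 4.44 FPKM in the SVZ replicates and 11.4 in OB, so the pattern of Omp was not shared by its host gene. Doc2g, a C2-domain protein gene (chromosome 19, 4003385 to 4007005), was at 524 FPKM against 3.06 and 2.07 (-7.01). Calb2, the calcium-binding protein calretinin of bulb interneurons (chromosome 8, 112666438 to 112692106), was at 656 against 4.90 and 3.65 (-6.80). The other 11 ran from -7.11 for Slc17a7 to -5.33 for Islr, among them the membrane gene Ms4a15, listed at 0 in both SVZ replicates, the tyrosine hydroxylase gene Th and the glutamate receptor gene Grm2. Slc17a7 and Grm2 were not particular to the bulb, since DG had 752 and 118 FPKM against 453 and 103 in OB.

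**Figure D1:**
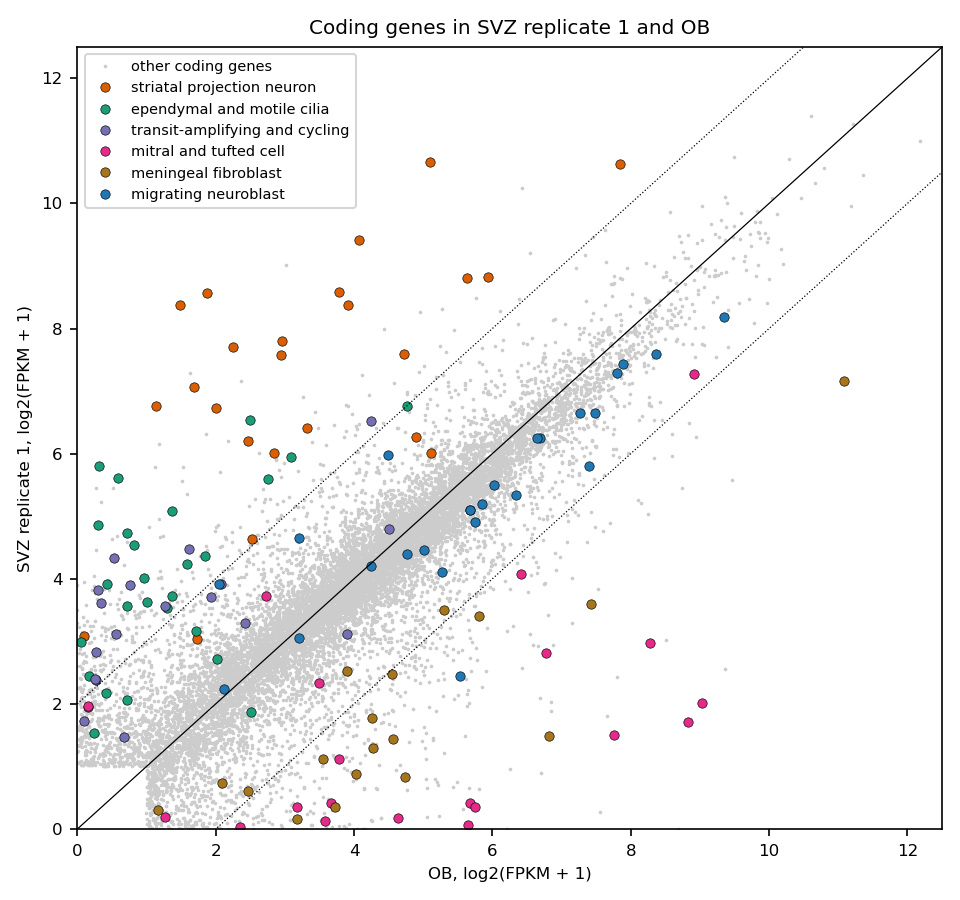
Each point is a coding gene at 1 FPKM or more in either sample, with its level in OB on the x axis and in SVZ replicate 1 on the y axis, both as log2(FPKM + 1). The solid line marks equal levels and the dotted lines a difference of 2 log2 units. Points of striatal, ependymal and cycling cell lists lie mostly above the lines, those of mitral and tufted cells and meningeal fibroblasts mostly below, and those of migrating neuroblasts along the middle.

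Genes of ependymal cells and their motile cilia were higher in the SVZ almost throughout. Of 26 listed genes, 24 exceeded OB by 1 unit or more in the SVZ and 0 fell below it by as much, with a median difference of 2.74. All 24 kept the direction with SVZ replicate 2, and with that replicate in place of replicate 1 the counts were 21 and 1 (median 1.88). Ccdc153, a coiled-coil protein gene marking ependymal cells, was at 55.0 and 23.9 FPKM in the SVZ replicates and 0.249 in OB (5.49). Ak7, an adenylate kinase of the axoneme, was at 27.9 and 17.2 against 0.232 (4.55). Foxj1, the factor that switches on the motile cilia programme, stood at 61 and 23.5 FPKM but was still at 7.49 in OB (2.87). Rarres2, which encodes the secreted protein chemerin and is found in ependymal cells, was at 91.9 and 30.6 against 4.63 (4.04). Tekt4, a tektin of the ciliary wall, fell short of the threshold (0.71), and the axonemal dynein gene Dnahc11 (now Dnah11) was the one member with a higher value in OB, 4.69 FPKM against 2.64 and 1.51 (-0.64). SVZ replicate 1 exceeded SVZ replicate 2 in all of these genes but Spag17 and Ttr, and the cause was not tested. Ttr, transthyretin, is mainly a choroid plexus gene, at 15.1 and 18.2 FPKM against 0.950 (3.04). Of the 13 choroid plexus genes 8 reached 1 FPKM, with 4 higher in the SVZ and 1, the water channel gene Aqp1, in OB at 50.7 FPKM against 0.283 and 0.210 (-5.33).

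Promoter motifs were searched only for the ependymal, cycling and olfactory sensory neuron lists, and ependymal windows are shown here. RFX factors, which act with Foxj1 on cilia genes, bind the X-box, part of which reads GTTGCC. On either strand of the RefSeq promoter window (build GRCm38.p6, 250 bases before to 50 after the start), GTTGCC was found in 11 of the 20 ependymal genes with a window (55.0%), against 14.1% of all 27025 genes with a window. The windows of Ccdc153 (chr9:44240427-44240726, plus strand) and Fam183b (chr11:58801911-58802210, minus strand), the latter a cilia protein gene at 33.0 and 16.7 FPKM in the SVZ against 1.57 in OB, read as follows, with the matches in capitals. The first holds 1 match and the second 2. Only windows with a match were considered for display. Cdhr4, with 1 match and a larger difference than Fam183b (4.01 against 3.72), is not shown.
Ccdc153: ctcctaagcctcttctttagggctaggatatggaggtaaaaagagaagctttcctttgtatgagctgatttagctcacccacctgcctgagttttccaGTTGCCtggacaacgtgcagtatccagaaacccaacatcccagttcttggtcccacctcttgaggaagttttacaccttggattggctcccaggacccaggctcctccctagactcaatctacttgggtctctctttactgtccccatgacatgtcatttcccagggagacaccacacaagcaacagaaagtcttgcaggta
Fam183b: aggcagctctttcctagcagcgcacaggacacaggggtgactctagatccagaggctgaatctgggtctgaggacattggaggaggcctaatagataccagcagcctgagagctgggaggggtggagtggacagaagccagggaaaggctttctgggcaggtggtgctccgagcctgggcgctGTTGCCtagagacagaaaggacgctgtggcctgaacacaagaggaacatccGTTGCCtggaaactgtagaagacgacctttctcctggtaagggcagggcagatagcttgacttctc
A match is a description of these letters and not evidence of binding.

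Genes of dividing cells stood on the SVZ side. Of 20 genes of transit-amplifying and cycling cells, 15 stood on the SVZ side by 1 unit or more and 0 on the OB side (median 2.13). All 15 kept the direction with SVZ replicate 2, but with that replicate in place of replicate 1 the counts were 14 and 2 (median 1.64). Topoisomerase Top2a, which untangles replicated chromosomes, was at 19.3 and 13.8 FPKM in the SVZ and 0.439 in OB (3.82). The proliferation antigen Mki67 was at 11.3 and 7.38 against 0.274 (3.27), and the ribonucleotide reductase subunit Rrm2 at 14.0 and 10.4 against 0.701 (3.14). Most mitotic genes were thus below 1 FPKM in OB. Cyclin D2 (Ccnd2), which drives the division of neuronal precursors, was at 91.0 and 57.7 against 18.0 (2.28). By contrast cyclin D1 (Ccnd1) was higher in OB, at 13.9 FPKM against 7.68 and 6.47 (-0.78), and the polymerase clamp gene Pcna, which has processed copies in the genome, was at 26.7 and 56.4 against 21.7 (0.29).

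Promoters of mitotic genes often carry the cell cycle genes homology region, whose letters TTTGAA were found on either strand in 7 of 16 cycling genes with a window (43.8%), against 20.2% of all genes with a window. The letters of an E2F site, TTCCCGC, were in 0 of the 16, against 5.29% of all genes with a window, so no match of these motifs overlapped another. The windows of Top2a (chr11:99024140-99024439, minus strand, 2 matches) and Ube2c (chr2:164769679-164769978, plus strand, 1 match) are shown, from RefSeq on GRCm38.p6, with TTTGAA or its reverse complement in capitals. Among members whose window holds a match, these had the largest differences. Ube2c, a ubiquitin-conjugating enzyme of mitotic exit, was at 13.2 and 4.65 FPKM in the SVZ against 0.226 in OB (3.54).
Top2a: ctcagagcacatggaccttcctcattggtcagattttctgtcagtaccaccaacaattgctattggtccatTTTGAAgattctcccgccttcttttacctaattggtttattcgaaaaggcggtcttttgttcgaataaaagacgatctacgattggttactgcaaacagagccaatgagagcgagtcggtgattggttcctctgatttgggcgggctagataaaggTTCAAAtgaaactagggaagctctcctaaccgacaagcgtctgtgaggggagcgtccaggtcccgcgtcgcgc
Ube2c: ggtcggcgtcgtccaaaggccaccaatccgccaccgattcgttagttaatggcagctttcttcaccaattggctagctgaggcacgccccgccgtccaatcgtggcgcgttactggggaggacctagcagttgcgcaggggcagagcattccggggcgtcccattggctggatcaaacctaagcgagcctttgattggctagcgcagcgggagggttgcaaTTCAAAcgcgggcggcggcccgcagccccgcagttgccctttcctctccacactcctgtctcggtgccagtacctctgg

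Genes shared by stem cells and astrocytes went both ways. Of 25, 6 were higher by 1 unit or more in the SVZ and 5 in OB, with a median of 0.35. With SVZ replicate 2 these counts were 4 and 9, and the median turned to -0.80. Thbs4, a matrix protein of SVZ astrocytes (chromosome 13, 93521541 to 93564773), stood apart at 70.5 and 27.7 FPKM against 1.27 (4.98). Id4, an inhibitor of basic helix-loop-helix factors, was at 117 and 116 against 33.2 (1.78), and Sox9, a factor of neural stem cells and astrocytes, at 27.5 and 11.6 against 9.07 (1.5). The orphan receptor gene Nr2e1, which maintains adult neural stem cells, was at 15.9 and 10.8 against 4.40 (1.65). On the other side, Fabp7, a fatty acid-binding protein of radial glia and ensheathing glia, was at 702 FPKM in OB against 46.9 and 27.4 (-3.88). Gfap, the intermediate filament gene of astrocytes and SVZ stem cells, was also higher in OB, at 278 against 92.4 and 43.2 (-1.58). Nes, Sox2, Prom1 and Egfr, often used to mark the stem cell lineage, differed by 0.58 to 0.88.

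Neuroblast genes leaned to OB with either SVZ replicate, although most differed by less than 1 unit with SVZ replicate 1. Of 24, 3 were higher by 1 unit or more in the SVZ and 4 in OB, with 17 in between and a median of -0.53. With SVZ replicate 2 in its place the counts were 3 and 12 (median -0.96). The medians of all genes were -0.08 with SVZ replicate 1 and -0.41 with SVZ replicate 2. On the SVZ side stood St8sia2, the sialyltransferase that adds polysialic acid to Ncam1, at 14.1 and 9.03 FPKM against 3.13 (1.87). Cd24a, a surface protein of neuroblasts and ependymal cells, was at 62.1 and 60.4 against 21.6 (1.48), and the early neuronal factor Sox11 at 24.1 and 19.5 against 8.26 (1.44). All of these kept their direction with SVZ replicate 2. On the OB side, Dcx, the microtubule protein doublecortin, was at 37.5 FPKM against 16.3 and 18.0 (-1.16), and Tubb3, neuronal beta-tubulin, at 649 against 291 and 186 (-1.16). In STR Dcx was at 2.54 FPKM, below both tissues of the migration route. The neural adhesion gene Ncam1 differed by -0.63 and the other polysialyltransferase, St8sia4, by 0.12.

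**Figure D2:**
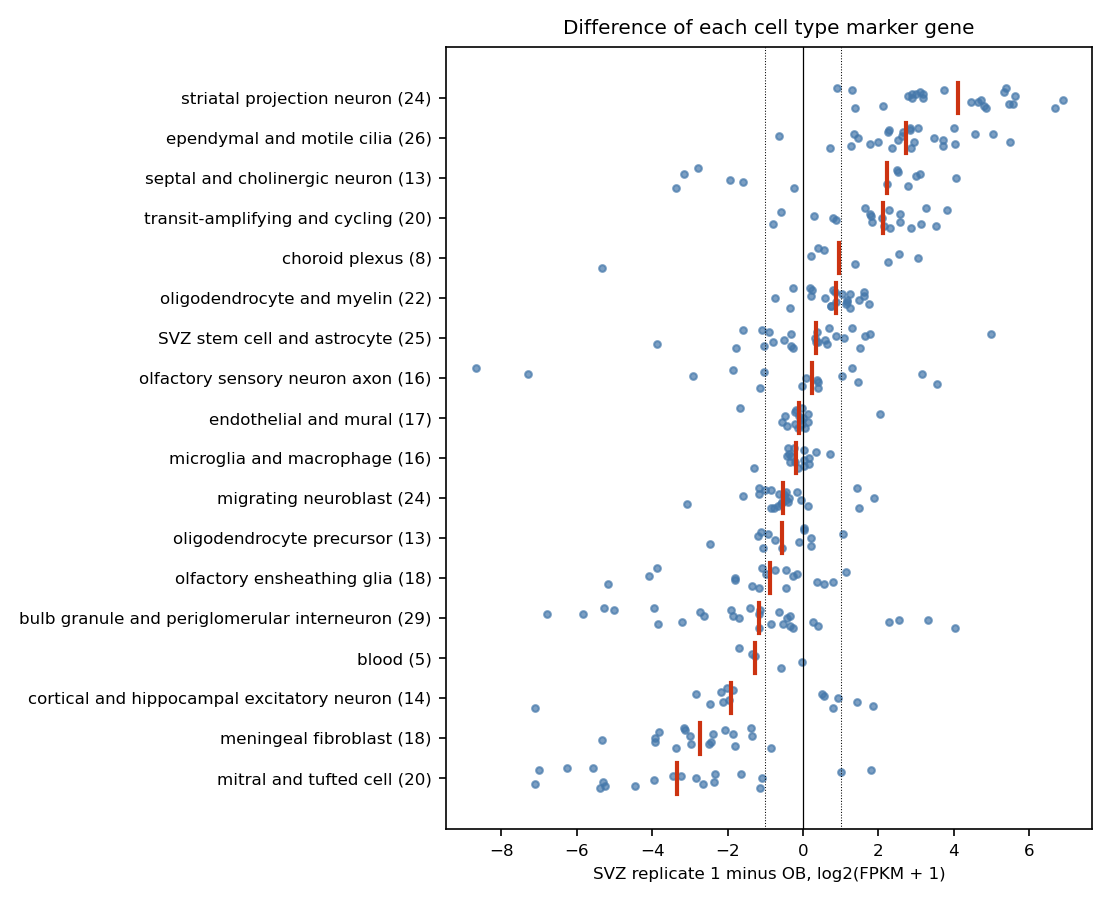
Each point is a cell type marker gene at 1 FPKM or more in SVZ replicate 1 or OB, placed by its difference in log2(FPKM + 1), SVZ replicate 1 minus OB, in rows by list with the number of genes in brackets. Red bars mark list medians, from 4.10 for striatal projection neurons to -3.34 for mitral and tufted cells, and dotted lines a difference of 1 unit either way.

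Transcription factors of the interneuron lineage differed in both directions. Of 41 listed genes, 7 were higher by 1 unit or more in the SVZ and 21 in OB, with a median of -1.08, and all 28 kept the direction with SVZ replicate 2. The SVZ side included the homeobox genes Gsx2, at 2.97 and 1.21 FPKM against 0.156 (1.78), and Gsx1, at 1.88 and 0.856 against 0.130 (1.35). Both pattern progenitors of the lateral ganglionic eminence in the embryo. It also held Six3, at 42.7 and 35.7 FPKM against 0.210 (5.18), Lhx6, at 8.38 and 5.96 against 0.276 (2.88), and Nkx2-1, at 4.89 and 2.38 against 0.0506 (2.49). STR had 31.0, 7.23 and 3.21 FPKM of these 3 genes, close to the SVZ, while Gsx2 was listed at 0 there. Six3 overlaps an antisense neighbour, and no source used here gives the strand setting of the libraries, so its reads and those of the neighbour cannot be told apart.

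The OB side included factors of bulb interneurons. Sp8, a zinc finger gene of calretinin interneurons, was at 45.4 FPKM in OB against 4.47 and 3.77 (-3.08), whereas its relative Sp9 was at 79.7 against 39.5 and 12.3 (-1.0). Zic1 and Zic2, zinc finger genes of the septal and bulb lineages, were at 59.3 against 4.79 and 3.25 (-3.38) and at 22.8 against 1.67 and 1.86 (-3.16). Members of one family thus stood at different distances. Tshz1, required for neuroblasts to leave the migratory stream and settle in the bulb, was at 125 FPKM against 19.4 and 16.5 (-2.62). Pax6, a factor of dopaminergic periglomerular cells, was at 32.8 against 8.27 and 5.46 (-1.87), and Nr4a2, which acts on the tyrosine hydroxylase gene, at 14.8 against 0.700 and 0.836 (-3.22). Nearer to equal was Meis2, at 207 against 171 and 143 FPKM (-0.28).

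The Dlx genes, homeobox factors that run through the whole lineage, were all higher in OB by different amounts. With SVZ replicate 1 this also held relative to the median of all genes. With SVZ replicate 2, where that median was -0.41, it did not hold for Dlx6. Dlx1 was at 167 FPKM in OB against 54.9 and 40.0 in the SVZ (-1.59). Dlx2 was at 50.1 against 33.3 and 9.36 (-0.57), Dlx5 at 52.9 against 28.9 and 19.4 (-0.85), and Dlx6 at 26.2 against 20.2 and 20.9 (-0.36). In STR Dlx1 and Dlx2 were at 2.50 and 0.478 FPKM. Dlx1 and Dlx6 have antisense neighbours whose reads cannot be told apart from theirs.

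**Figure D3:**
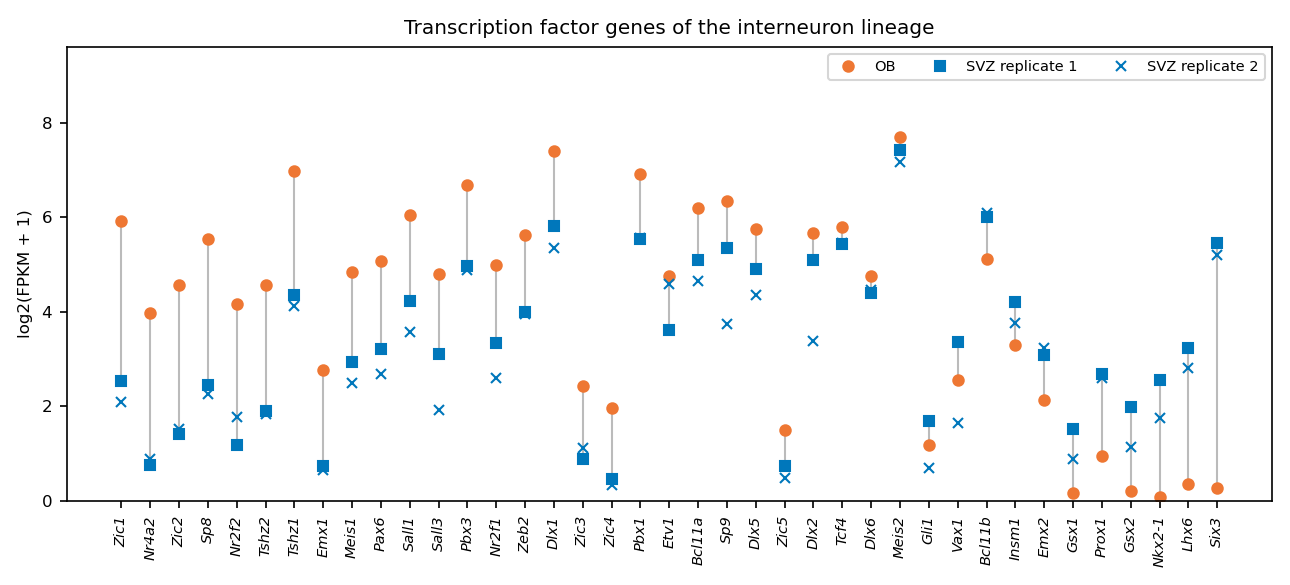
Levels of 39 transcription factor genes of the interneuron lineage as log2(FPKM + 1), ordered from the gene with the largest excess in OB to that with the largest excess in the SVZ. Orange circles are OB, blue squares SVZ replicate 1 and blue crosses SVZ replicate 2, and grey lines join OB to SVZ replicate 1. Genes at the left, with the higher level in OB, include Zic1, Nr4a2 and Sp8, and those at the right, with the higher level in the SVZ, include Gsx2, Lhx6 and Six3.

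Of the 64 listed genes of migration and guidance, 62 reached 1 FPKM, and 44 of these differed by less than 1 unit. In the SVZ 6 were higher (9.68%, against 7.67% of all genes) and in OB 12 (19.4%, against 9.28%). Slit ligands repel neuroblasts from the septum and striatum. Slit2 was at 6.05 and 3.48 FPKM in the SVZ against 1.49 in OB (1.5), and Slit3 at 21.3 and 12 against 7.15 (1.45), while Slit1, which neuroblasts make themselves, differed by 0.37. The receptor genes Robo1 and Robo2 differed by 0.68 and -0.55. Among Eph receptors, Ephb1 was at 35.5 and 25.0 FPKM against 6.37 (2.31) and Epha4 at 62.1 and 59.5 against 21.0 (1.52). STR had 26.9 and 64.1 FPKM of the 2 Eph receptor genes, close to the SVZ.

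The 12 genes higher in OB included signals that act on arriving neuroblasts. Reln, the extracellular protein reelin made by mitral cells, which detaches neuroblasts from their chains, was at 84.6 FPKM in OB against 15.8 and 18.1 (-2.35). Prok2, a secreted attractant of neuroblasts, was at 3.22 against 0.127 and 0.110 (-1.91), and its receptor gene Prokr2 at 7.93 against 3.22 and 3.83 (-1.08). Ligand and receptor thus stood on the same side. Sema3c, a class 3 semaphorin, was at 22.5 FPKM against 2.69 and 3.69 (-2.67), and the neurotrophin gene Bdnf at 3.09 against 0.0222 and 0.107 (-2.0). Tnr, tenascin-R, another bulb signal for detachment, differed by only -0.56, and the chemokine receptor gene Cxcr4 by -0.28.

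In the Wnt pathway, 42 of 48 listed genes reached 1 FPKM, with 5 at least 1 unit higher in the SVZ and 13 in OB (4 and 22 with SVZ replicate 2). The SVZ side held the ligand gene Wnt2, at 8.53 and 5.99 FPKM against 0.176 (3.02), the secreted Dickkopf relative Dkk3, at 76.4 and 62.0 against 13.5 (2.41), and the receptor gene Fzd5, at 7.07 and 5.03 against 1.09 (1.95). STR had 4.39 FPKM of Wnt2 and 32.2 of Dkk3, each within 1 unit of SVZ replicate 2. The OB side held Lgr5 and Lgr6, receptors for R-spondins, at 35.8 against 0.690 and 0.835 (-4.44) and 32.2 against 0.581 and 0.312 (-4.39). Their ligand gene Rspo3 was at 14.5 FPKM against 0.892 and 0.883 (-3.03). R-spondin receptors and this ligand were thus on the OB side together, while Rspo1 was on the other (1.63). Frzb, a secreted Wnt antagonist, was at 55.3 against 0.567 and 0.409 (-5.17), and the target gene Axin2, a common readout of the canonical pathway, was level at 12.1 against 11.7 and 8.64 (-0.05).

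BMP antagonists are thought to shield the SVZ niche from BMP signals, and the main ones were higher in OB. Nog, encoding noggin, was at 17.4 FPKM in OB against 1.73 and 0.989 (-2.76), and Grem1, encoding gremlin, at 7.66 against 0.338 and 0.0789 (-2.69). The ligand gene Bmp7 was also higher in OB, at 32.8 against 2.87 and 1.68 (-3.13). Of 29 genes of the pathway 2 were higher in the SVZ and 9 in OB (2 and 14 with SVZ replicate 2): the first were Id4 and Lrp2, an endocytic receptor of ependymal cells at 2.64 and 1.43 FPKM against 0.0863 (1.75).

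Notch genes showed 1 of 23 higher in the SVZ and 4 in OB, but 0 and 15 with SVZ replicate 2 (median -0.46 and -1.26). The exception on the SVZ side, the ligand gene Dll3 (3.35 FPKM in SVZ replicate 1 and 0.736 in OB), was at 0.547 in SVZ replicate 2 and so did not keep its direction. On the OB side stood Heyl, a target factor, at 14.8 against 1.19 and 0.887 FPKM (-2.84), and Dner, a neuronal Notch ligand, at 165 against 23.1 and 11.6 (-2.78). The receptor gene Notch1 and the target gene Hes5 differed by 0.22 and -0.52. In the sonic hedgehog pathway 10 of the 12 genes at 1 FPKM or more differed by less than 1 unit, but with SVZ replicate 2 1 was higher in the SVZ and 5 in OB, and the median turned from 0.07 to -0.70. The ligand gene Shh was at 2.37 FPKM in OB against 0.545 and 0.202 (-1.12), and the target genes Ptch1 and Gli1 differed by -0.54 and 0.51.

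Of 45 growth factor and receptor genes at 1 FPKM or more, 2 were higher in the SVZ and 14 in OB. The SVZ side had Tgfa, a ligand of the EGF receptor, at 53.1 and 43.0 FPKM against 21.8 (1.25). The OB side had Igfbp2, a binding protein of insulin-like growth factors, at 171 against 11.1 and 3.07 (-3.82), and Igf1 at 7.44 against 0.546 and 0.789 (-2.45). Of 16 retinoic acid genes at 1 FPKM or more, 3 were higher in the SVZ, 5 in OB and 8 in between. The receptor genes Rarb, at 72.6 and 64.6 FPKM against 4.52 (3.74), and Rxrg, at 84.2 and 65.7 against 8.95 (3.10), were on the SVZ side. The synthesizing enzyme genes Aldh1a2, at 12.2 against 0.284 and 0.369 (-3.36), and Aldh1a1, at 25.7 against 4.67 and 6.66 (-2.24), were on the OB side. STR had Rarb at 59.5 and Rxrg at 93.7 FPKM, close to the SVZ.

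Projection neurons of the bulb were marked by OB-higher genes. Of 23 mitral and tufted cell genes, 20 reached 1 FPKM, 18 of them at least 1 unit higher in OB and 2 in the SVZ, with a median of -3.34. The vesicular glutamate transporter gene Slc17a7 was at 453 FPKM against 2.29 and 6.07 (-7.11). Eomes, a T-box factor of these neurons, was at 50.2 against 0.336 and 0.293 (-5.26), and its relative Tbx21 at 23.8 against 0.137 and 0.0235 (-4.45). Both T-box genes were listed at 0 in STR. Cdhr1, a cadherin of mitral cells, was at 216 FPKM against 1.84 and 0.581 (-6.25), and Cck, the cholecystokinin gene of tufted cells, at 309 against 6.83 and 8.19 (-5.31). The exceptions were Slc17a8, the third vesicular glutamate transporter gene, at 2.90 and 3.04 FPKM in the SVZ against 0.109 (1.81), and Kcng1, a potassium channel subunit (1.00).

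Bulb interneuron genes were less one-sided, with 16 of 29 at 1 FPKM or more higher in OB, 4 in the SVZ and a median of -1.16. Dopaminergic periglomerular cells make dopamine with tyrosine hydroxylase, whose gene Th was at 200.3 FPKM against 2.50 and 1.83 (-5.85), while the next enzyme gene of the path, Ddc, was level at 5.89 against 4.44 and 5.97 (-0.34). The plasma membrane dopamine transporter gene Slc6a3 was at 6.01 against 0.0542 and 0.0554 (-2.73), and the vesicular one, Slc18a2, at 3.48 against 2.36 and 3.41 (-0.42). Within one transmitter system, then, single genes stood far apart in size. Trh, the precursor of thyrotropin-releasing hormone, was at 75.1 FPKM against 0.946 and 1.53 (-5.29), and Scgn, secretagogin of granule and periglomerular cells, at 36.4 against 0.154 and 0.352 (-5.02). On the SVZ side stood Calb1, calbindin, at 72.9 and 95.7 against 3.54 (4.02), and Sst, somatostatin, at 306 and 227 against 29.9 (3.31). STR had 124 FPKM of Calb1 and 242 of Sst.

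GABA genes of one function could stand apart. Gad1, one of the GABA-synthesizing enzyme genes, was at 602 FPKM in OB against 186 and 180 (-1.69), but Gad2 was at 100.3 against 132 and 171 (0.39). The vesicular transporter gene Slc32a1 was at 245 against 194 and 112, within 1 unit with SVZ replicate 1 (-0.34) but past it with SVZ replicate 2. The uptake transporter gene Slc6a11 was at 429 against 42.6 and 22.7 (-3.30). Among receptor subunits, Gabra5 was at 52.5 against 10.9 and 15.6 (-2.17), and Gabra3 at 46.8 against 10.5 and 12.4 (-2.06). Gabra4, at 46.7 and 60.6 FPKM in the SVZ against 16.6 (1.44), and Gabrd, at 89.6 and 44.5 against 34.3 (1.36), lay on the other side. Of the 24 genes of this list at 1 FPKM or more, 3 were higher in the SVZ and 8 in OB.

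Olfactory sensory neurons have their cell bodies in the nose, and their transcripts reach the bulb only in axons. Of 21 listed genes, 16 reached 1 FPKM, with 6 higher in OB and 5 in the SVZ and a median of 0.23 that turned to -0.18 with SVZ replicate 2. Besides S100a5 and Omp, Stoml3, a stomatin-like protein of these neurons, was at 38.5 FPKM against 4.25 and 2.88 (-2.91), and Gng13, a G-protein gamma subunit, at 115 against 30.9 and 24.9 (-1.86). Other genes of odorant signalling went against these, among them Gnal. This gene, which encodes the olfactory-type G-protein alpha subunit also used by striatal neurons, was at 255 and 260 FPKM in the SVZ against 20.6 (3.56). Ano2, a chloride channel, was at 12.8 and 8.76 against 0.554 (3.15). STR had 296 FPKM of Gnal and 13.1 of Ano2. The cyclic nucleotide-gated channel genes Cnga2, Cnga4 and Cngb1 and the receptor transport genes Rtp1 and Rtp2 were below 1 FPKM in both tissues. In promoter windows, the letters CCCNNGG (N for any base), core of the Olf-1 site of EBF factors, were also searched. They were found in 14 of 15 genes of this list with a window (93.3%), against 53.6% of all genes with a window.

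Glia and coverings of the bulb added to the OB side. Of 18 ensheathing glia genes at 1 FPKM or more, 8 were higher in OB and 1 in the SVZ, led by Frzb, by Frmd7, a FERM-domain gene at 38.4 FPKM against 1.33 and 2.72 (-4.08), and by Fabp7. Of 18 meningeal fibroblast genes 17 were higher in OB and 0 in the SVZ, with a median of -2.73. The prostaglandin D synthase gene Ptgds was at 2178 FPKM against 141 and 172 (-3.94), the proteoglycan gene Dcn at 22.6 against 1.71 and 1.77 (-3.12), and Islr at 112 against 1.82 and 0.667 (-5.33). The summed level of the list was 2730.3 FPKM in OB and 194 and 197 in the SVZ replicates. Of 50 extracellular matrix genes at 1 FPKM or more, 28 were higher in OB and 4 in the SVZ, among them Fmod, Dcn, Bgn and the collagens of the meningeal list. The part of the meninges in the matrix genes, in Igfbp2 and in Aldh1a2, which stand in both kinds of list, was not tested. Of 5 blood genes at 1 FPKM or more 3 were higher in OB, with the haemoglobin gene Hba-a2 at 678 FPKM in OB against 207 and 141.

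Of 22 oligodendrocyte genes 10 were higher in the SVZ and 0 in OB, with a median of 0.87 (6 and 2 with SVZ replicate 2). Mbp, myelin basic protein, was at 1702 and 1301 FPKM against 723 (1.23), and Opalin, a membrane protein of myelin, at 17.5 and 10.9 against 4.44 (1.76). Precursor genes leaned the other way, with 1 of 13 higher in the SVZ and 4 in OB, although their receptor gene Pdgfra was level (0.21). Endothelial and mural genes had a median of -0.10 and microglial genes one of -0.19, against -0.60 and -0.61 with SVZ replicate 2, where 0 and 2 of the former and 0 and 4 of the latter were past 1 unit in the SVZ and OB. With SVZ replicate 1 the only genes of these 2 lists past 1 unit were Acta2, smooth muscle actin, at 30.5 and 13.7 FPKM in the SVZ against 6.62 (2.05), Cldn5, a tight junction gene of endothelium, at 70.8 in OB against 21.7 and 12.6 (-1.66), and Mrc1, a receptor of border macrophages, at 2.59 in OB against 0.451 and 0.238 (-1.31).

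Of the 18 cell type lists, striatal projection neurons had the highest median: 23 of 24 genes exceeded OB by 1 unit or more and 0 fell below it by as much, with a median of 4.10. Ppp1r1b, the dopamine-regulated phosphatase inhibitor DARPP-32 (chromosome 11, 98210052 to 98219597), reached 1627 and 765 FPKM in the SVZ and 33.3 in OB (5.57). The dopamine receptor genes Drd1a and Drd2 were at 108 and 119 against 1.2 (5.63) and at 208 and 87.5 against 3.75 (5.46). Markers of the direct and the indirect pathway were thus both present. The summed level of the list was 7769.8 and 5696 FPKM in the SVZ replicates, 557 in OB and 6725 in STR, and SVZ replicate 2 minus STR gave a list median of -0.40. Bcl11b, a factor also found in bulb granule cells, was the exception within 1 unit, at 63.5 and 67.2 against 33.7 (0.89).

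To see which SVZ-higher genes the neighbouring striatum shared, the 338 genes at 2 units or more were placed by SVZ replicate 2 minus STR, a pair with no library in common with the first. In 169 (50%) SVZ replicate 2 was at least 1 unit above STR, in 160 (47.3%) the difference was under 1 unit, and in 9 (2.66%) STR was higher. Over all 13716 genes these shares were 3.8%, 95.4% and 0.824%. The first class included ependymal and cycling genes such as Ccdc153, Tmem212, Foxj1, Top2a and Mki67, and also Thbs4, Crym and Pdyn. The second included Scn4b, Drd1a, Six3 and Cd4. Pdyn, the prodynorphin gene, was at 133 and 116 FPKM in the SVZ, 31.2 in STR and 2.23 in OB, and so stood apart from the other striatal genes. Of the 377 OB-higher genes, 346 (91.8%) were within 1 unit between SVZ replicate 2 and STR.

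**Figure D4:**
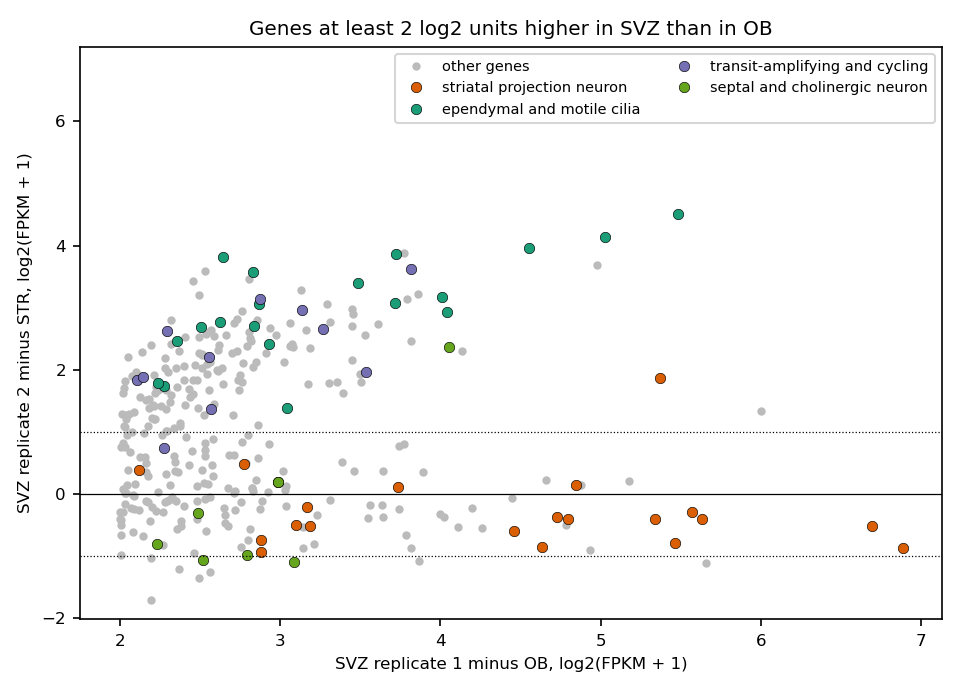
The 338 genes at least 2 log2 units higher in SVZ replicate 1 than in OB (x axis) by their difference between SVZ replicate 2 and STR (y axis), both in log2(FPKM + 1). Dotted lines mark 1 unit either way. Most ependymal and cycling cell genes lie above the upper line with 169 genes in all, and striatal neuron genes lie within 1 unit of 0 except Pdyn.

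Septal and cholinergic genes went both ways, with 7 of 13 at 1 FPKM or more higher in the SVZ and 5 in OB. The acetylcholine-synthesizing enzyme gene Chat was at 7.89 and 4.08 FPKM against 0.0432 (3.09), and the choline transporter gene Slc5a7 at 5.73 and 7.67 against 0.172 (2.52). Slc18a3, the vesicular transporter gene, followed them (2.79), but it lies inside the Chat gene, so their reads may not be fully separated. In STR Chat was at 9.90 and Slc5a7 at 17.1 FPKM, above both SVZ replicates, and Slc18a3 was at 4.77, between the replicates. Nts, the neurotensin precursor, was at 46.4 and 39.3 against 1.86 (4.05), with 6.83 in STR. The 5 on the OB side were Zic1, Zic2, Dner, the cation channel gene Trpc4 and the diacylglycerol kinase gene Dgkg. Cortical and hippocampal excitatory neuron genes were higher in OB for 8 of 14 at 1 FPKM or more, and Slc17a7 and Tbr1 of these are also mitral cell genes.

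Neuropeptide precursors differed in both directions: of 24 at 1 FPKM or more, 5 were higher by 1 unit or more in the SVZ, 14 in OB and 5 in between. The SVZ side held the opioid precursors Pdyn and Penk, the latter at 1581 and 1684 FPKM against 230 (2.78), Tac1, the substance P precursor, at 223 and 235 against 6.79 (4.84), Nts and Sst. On the OB side, besides Cck and Trh, Nmb, neuromedin B, was at 108 against 6.06 and 2.76 (-3.95). Vip, vasoactive intestinal peptide, was at 14.2 against 0.0534 and 0.503 (-3.85), and Nppa, atrial natriuretic peptide, at 18.2 against 0.0982 and 0.289 (-4.13).

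Calcium-binding proteins also differed in both directions, with a median near 0 (-0.09): 5 of 31 were higher in the SVZ and 9 in OB. Calbindin and calretinin, often used as alternative markers of interneuron types, stood on opposite sides, with Calb1 at 4.02 and Calb2 at -6.80. Hippocalcin (Hpca), a neuronal calcium sensor, was at 1215 and 733 FPKM in the SVZ against 85.2 (3.82), and Caln1, calneuron, at 78.3 and 73.2 against 2.63 (4.45). STR had 1346 FPKM of Hpca and 76.7 of Caln1. Necab3 and Kcnip1, an EF-hand protein and a potassium channel partner, were at 42.5 against 3.22 and 1.69 (-3.36) and at 38 against 4.65 and 5.42 (-2.79). Hpcal1 was the one SVZ-higher member that did not keep its direction, at 39.1 FPKM in SVZ replicate 1, 9.33 in SVZ replicate 2 and 10.3 in OB.

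Genes of cAMP and G-protein signalling were higher in the SVZ for 16 of 39 and in OB for 9 (median 0.39). They included Gng7, a gamma subunit of striatal neurons, at 680 and 309 FPKM against 15.8 (5.34), the phosphodiesterase gene Pde10a, at 330 and 308 against 14.0 (4.46), and the adenylyl cyclase gene Adcy5, at 449 and 220 against 48.4 (3.19). On the OB side their relatives Gng4, at 364 against 7.13 and 6.93 (-5.49), and Adcy8, at 31.5 against 1.45 and 1.09 (-3.73), took the opposite place. Gamma subunits and cyclases of one family were thus divided between the tissues. In STR Gng7 was at 409 and Gng4 at 5.61 FPKM.

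Of 27 glutamate genes, 6 were higher in the SVZ and 12 in OB. Among metabotropic receptors Grm2 was at 103 FPKM in OB against 0.866 and 0.480 (-5.80), while Grm3, its closest relative, was at 41.0 and 34.7 in the SVZ against 10.3 (1.89). The NMDA receptor subunit gene Grin2d was at 21.5 against 2.64 and 1.07 (-2.63), and the obligatory subunit gene Grin1 at 358 against 228 and 84.8 (-0.65). Of 40 monoamine and acetylcholine genes at 1 FPKM or more, 11 were higher in the SVZ and 13 in OB, with a median of 0.00 (7 and 15 with SVZ replicate 2). Besides the dopamine receptors, the serotonin receptor genes Htr1b, at 54.3 and 46.7 FPKM against 1.18 (4.66), and Htr2c, at 24.3 and 25.6 against 1.29 (3.46), were on the SVZ side. STR had 40.1 FPKM of Htr1b and 19.7 of Htr2c. The muscarinic receptor gene Chrm2 was at 24.3 in OB against 1.03 and 1.79 (-3.64), and the nicotinic subunit gene Chrna3 at 5.46 against 0.105 and 0.139 (-2.55).

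Genes of synaptic vesicles and their release were higher in OB for 15 of 38 and in the SVZ for 4. Synapsin 1 (Syn1) was at 314 FPKM against 107 and 67.4 (-1.54), synaptophysin (Syp) at 676 against 312 and 275 (-1.11), and complexin 1 (Cplx1) at 838 against 355 and 167 (-1.24). Its relative Cplx2 was at 502 and 283 in the SVZ against 147 (1.76). No respiratory chain gene of 27 and no cytosolic ribosomal protein gene of 28 passed 1 unit, with medians of -0.34 and 0.16. With SVZ replicate 2, 3 respiratory chain genes were higher in the SVZ and 10 in OB, and 13 and 3 ribosomal genes. The ribosomal median was then 0.91, and SVZ replicate 2 minus STR gave 0.30.

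Immediate early genes, which respond to activity and handling within minutes, had 14 of 18 within 1 unit and a median of 0.19. With SVZ replicate 2, 2 were higher in the SVZ and 6 in OB, and the median turned to -0.58. Egr4 was at 89.1 and 25.8 FPKM in the SVZ against 20.5 (2.07), Egr2 at 25.8 and 34.0 against 10.8 (1.18), and Ier2 at 14.6 in OB against 3.24 and 1.63 (-1.88). Fos was at 52.1 in OB against 30.5 and 19.7 (-0.75). Of 14 reference genes, B2m, a class I antigen subunit, was the one past 1 unit, at 91.9 in OB against 43.8 and 40.7 (-1.05), while with SVZ replicate 2 1 was higher in the SVZ and 6 in OB.

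**Figure D5:**
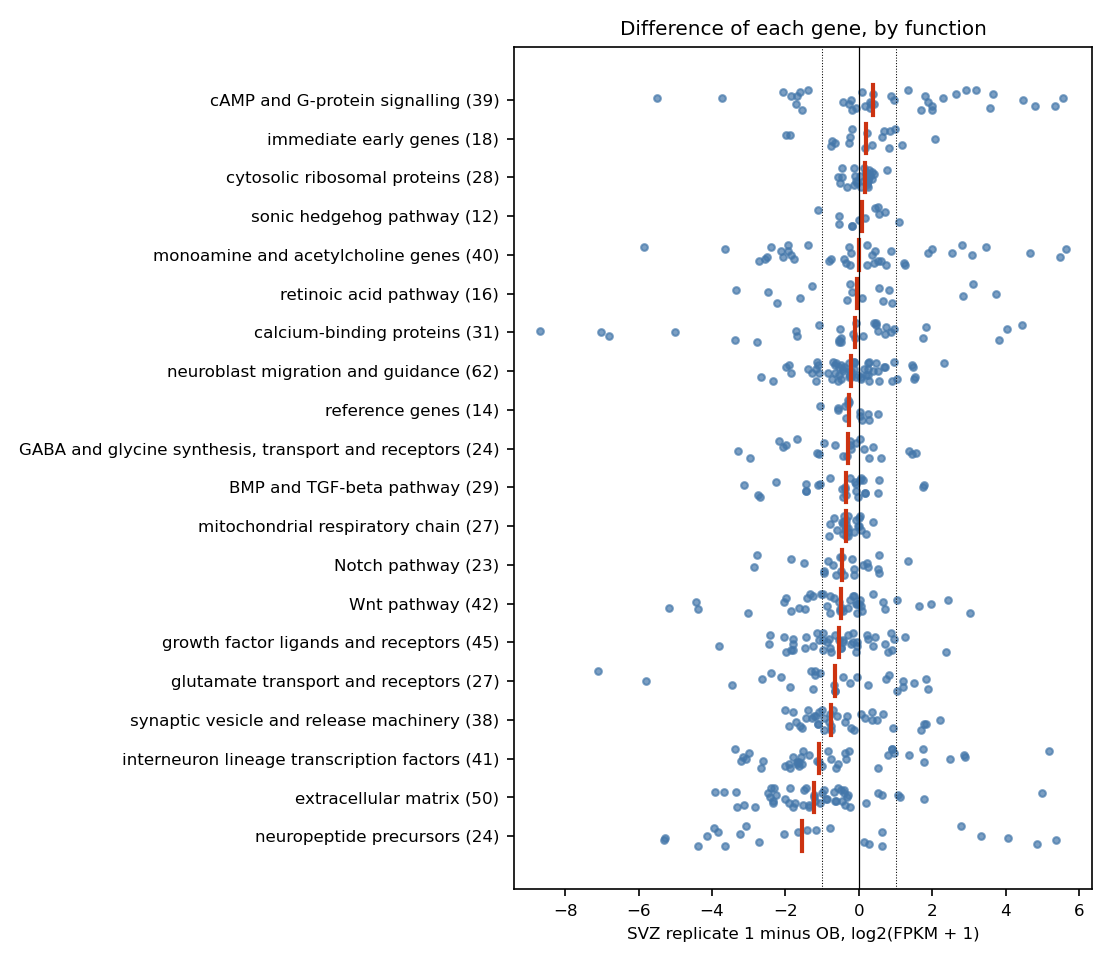
Each point is a gene at 1 FPKM or more in SVZ replicate 1 or OB, placed by its difference in log2(FPKM + 1), SVZ replicate 1 minus OB, in rows by function with the number of genes in brackets. Red bars mark list medians, from 0.39 for cAMP and G-protein signalling to -1.54 for neuropeptide precursors, and dotted lines a difference of 1 unit. Ribosomal and respiratory chain genes stay within 1 unit of 0, while calcium-binding proteins spread from 4.45 to -8.68.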

How the data were processed

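Poly(A) RNA-seq of microdissected mouse brain regions was used. CASAVA, TopHat 1.2.0, Cufflinks 1.0.0 and build mm9 are named, with no role or order, per the submitters' processing notes. The deposited table holds FPKM values computed by the authors for 37142 transcripts in 5 libraries, per the file headers. The values of 25975 RefSeq coding transcripts were summed by symbol to 20340 genes. Sequencing depth is unknown: at the best of many step sizes, 33.2% to 47.0% of low values lay within 0.1 of a whole step. The 20% by chance holds for a single fixed step and is no measure for the best of many, so no counting interval is given.

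Differences of log2(FPKM + 1) were computed in Python 3.11.15 with pandas 2.3.3 for genes at 1 FPKM or more in SVZ replicate 1 or OB, and checked on simulated data. The named genes were the 15 largest differences each way at 5 FPKM or more with 1 direction in both SVZ replicates, and members of 38 lists (875 genes, 12 matched by older symbols). Members and lists were chosen with earlier results of these data known. Lists count members that reached 1 FPKM, which favours members that differ. Coordinates are mm9 and counted from 1. Promoter windows are from RefSeq on GRCm38.p6. The alternatives were 9 other settings. Some genes of the lists are counted but not reported here by name.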

Additional observations from a re-analysis of the deposited data

How the results depend on the processing

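No paired analysis was possible because OB had 1 sample, the groups share fewer than 2 replicate numbers, and no result came from a test. With a pseudocount of 0.1, 639 genes were at least 2 log2 units higher in the SVZ and 654 in OB, against 338 and 377. Without SVZ replicate 1, that is with SVZ replicate 2 alone, the counts were 314 and 778, and 28.8% of these genes were higher in the SVZ against 47.3%. They shared 180 and 358 genes with the main counts. The mean of both replicates gave 287 and 498 (36.6% higher in the SVZ). Under the other 6 settings (a minimum of 5 FPKM, no minimum, centring, median ratio scaling, the highest transcript per symbol, GC correction) the counts ran from 302 to 371 and from 332 to 377. The cause of these shifts was not tested. The median of the septal and cholinergic list turned to -0.24 with a minimum of 5 FPKM. FPKM carry no counts, so the precision of low values is unknown.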

Other observations

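Families defined by gene symbol showed further unequal splits between the tissues at 1 log2 unit. Only members at 1 FPKM or more in SVZ replicate 1 or OB were counted. Over all 13716 genes the shares were 7.67% higher in the SVZ and 9.28% in OB. Kinesins, motors that move along microtubules, had 16 of 34 members higher in the SVZ and 3 in OB. Axonemal dyneins, the motors of motile cilia, had 9 of 11 higher in the SVZ and 0 in OB, and genes with a coiled-coil (Ccdc) symbol 32 of 117 and 2. Regulators of G-protein signalling had 8 of 18 higher in the SVZ and 1 in OB.

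Genes with a potassium channel (Kcn) symbol, of any channel type, leaned to OB, with 26 of 77 higher in OB and 13 in the SVZ. Collagens had 15 of 33 and 4, solute carriers 46 of 264 and 24, and semaphorins and plexins 7 of 24 and 1. Kcn genes, collagens and solute carriers exceeded the shares of all genes on both sides. Large families with few members past 1 unit were the zinc finger (Zfp) genes, 5 of 327 higher in the SVZ and 6 in OB, proteasome genes, 0 of 39 and 2, and protocadherins, 0 of 67 and 4. Of 1106 olfactory receptor genes in the table, 8 reached 1 FPKM in either tissue, with 1 higher in each. These families were chosen with the data in view and were not tested.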
